A study of Mus musculus with 42 samples.

Results

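Sorted Ki67+ microglia from brains of 12-month-old APP/PS1 mice were compared with those of WT littermates, in 4 libraries of each genotype among the 42 libraries of the series. The members of the comparison were the genes whose mean deposited value reached 7 in either group, which gave 12930 of 19151 genes. Of these, 10874 reached 7 in both groups and 2056 in 1 group only. The mice were males on a C57BL/6 background. The APP/PS1 transgenes run from the prion protein promoter and act mainly in neurons, so microglial RNA offers no direct check of genotype. All cells were gated as CD11b+/CD45+, stained for nuclear Ki67 after fixation and collected as pools of up to 400 cells. Each library is such a pool and the labels do not say whether Ki67+ and Ki67- libraries came from the same animals. The companion groups used below were Ki67- microglia at 12 months (4 APP/PS1 and 3 WT libraries) and Ki67+ microglia at 4 months (4 and 5) and 6 months (2 and 2).

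Microglia are the resident macrophages of the brain, renewed by local division, and Ki67 is a nuclear protein of cycling cells. Around amyloid plaques they are known to take up a state called disease-associated, in which an early step raises Apoe, Tyrobp and cathepsins and a later step, which needs the lipid-sensing receptor TREM2, raises Cst7, Clec7a, Itgax and Lpl while homeostatic genes such as Tmem119 and P2ry12 recede. The TREM2 receptor signals through the adaptor TYROBP, and the growth factor receptor CSF1R keeps microglia alive and dividing.

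The sources used here do not state the transformation behind the deposited values. They look like log2 values that flatten at low levels, in which case differences of weakly expressed genes are understated, and read counts are not recoverable. Replicates of a gene had a median SD of 0.266 in APP/PS1 and 0.187 in WT Ki67+ libraries, and Pearson's r across genes between replicates lay between 0.9038 and 0.9735 and between 0.9302 and 0.9907. The 10 microglial markers averaged 12.78 to 13.04 per library in APP/PS1 and 12.87 to 12.94 in WT mice (exact two-sided permutation test, p = 0.8857, adjusted p = 0.8857 over 10 marker lists). Astrocyte markers were well above the floor in both genotypes. They averaged 10.68 to 11.05 per library in APP/PS1 and 11.43 to 11.70 in WT Ki67+ microglia, against group means of 8.0 and 8.88 in Ki67- microglia. Mki67 averaged 8.59 in Ki67+ and 7.77 in Ki67- libraries of APP/PS1 mice. It did not follow the sort in WT mice, where its group mean was 7.73 in Ki67+ and 8.82 in Ki67- libraries. The WT Ki67- value comes from 3 nearly identical libraries (described below). The 53 genes of G2 and mitosis did follow the sort, with mean levels of 8.15 (APP/PS1) and 7.98 (WT) in Ki67+ against 6.98 and 6.90 in Ki67- libraries. In pooled cells, fewer cells of a type and less RNA per cell cannot be told apart.

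Genes moved both ways in the APP/PS1 cells, with 596 genes (4.61% of the 12930) called higher and 791 (6.12%) called lower than in WT by limma at an FDR of 0.05. The median size of a called difference was 1.04 on the log2 scale for higher and 1.02 for lower genes. Differences of at least 1 were reached by 344 higher and 417 lower genes, and of at least 2 by 8 and 3. Of the called genes, 392 higher and 510 lower ones had a mean of at least 7 in both groups. The other 204 and 281 entered through 1 group only. Among genes named below, these include Cxcl1, Il6, Tlr1, Ttk, Kctd2, Nipal3 and Rspo1, with WT means under 7. They also include Il34, Megf10, Nr1h3, Rrm2 and Bace2, with APP/PS1 means under 7. All 4 APP/PS1 libraries lay above, or all 4 below, all 4 WT libraries for 582 higher and 771 lower genes, and for 35.2% of all 12930 genes, called or not. The median level was 8.15 for higher genes, 8.04 for lower genes and 8.16 for all. Without any 1 library other than APP/PS1 replicate 3 or WT replicate 4, the number of calls fell from 1387 to between 666 and 803. From the rank of the deposited values, the batch correction made before deposition was taken to have protected the 12 groups. P-values, those of the permutation tests included, then favour the real groups.

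**Figure D1:**
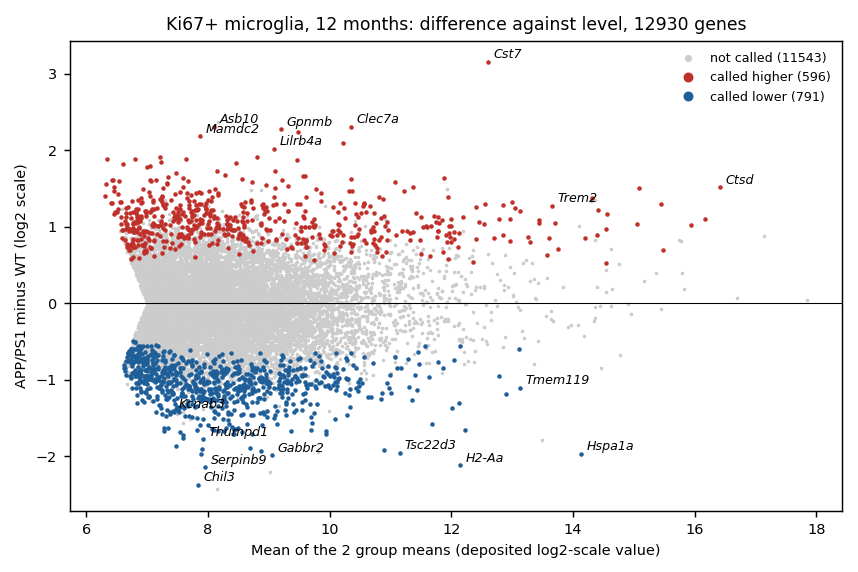
APP/PS1 minus WT difference in Ki67+ cells of 12-month-old mice (y axis, log2 scale) against the mean of both group means (x axis, deposited log2-scale value), with 1 point per gene, red for called higher (596), blue for called lower (791) and grey for the rest. Cst7 stands highest at 3.15, and the lower genes with the largest differences are Chil3 (-2.37), Serpinb9 (-2.14) and H2-Aa (-2.11). The Chil3 call was lost with any 1 of the 8 libraries left out.

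The lowest p among higher genes belonged to Asb10, Ctsd, Syngr1, LOC105244208, Baiap2l2, Mamdc2, Ctnna3 and Myo5a. Among these, Asb10, Mamdc2 and Ctnna3 had WT means under 7 and entered the comparison through the APP/PS1 group only. Asb10, a substrate-binding subunit of a ubiquitin ligase on chromosome 5 from 24532697 to 24540978 (GRCm38), measured 9.17, 9.68, 8.95 and 9.19 in the APP/PS1 and 6.88, 6.98, 6.37 and 7.54 in the WT libraries. The groups did not overlap (difference 2.31, SE 0.30), and the WT values sat near the flat end of the scale. Syngr1, which encodes a synaptic vesicle protein, measured 12.62, 12.75, 12.64 and 12.76 against 10.99, 11.09, 10.64 and 11.49 (difference 1.64, SE 0.24, limma adjusted p = 0.000293). The unnamed locus LOC105244208 measured 10.52, 10.54, 10.71 and 10.59 against 8.25, 8.30, 8.24 and 8.62 (2.24, SE 0.33, adjusted p = 0.000315). Replicates of this locus were tight in both genotypes. Mamdc2, an extracellular matrix proteoglycan, differed by 2.18 (SE 0.33, adjusted p = 0.000321), Baiap2l2, a membrane-bending protein of microvilli, by 1.23 (SE 0.18), Ctnna3, a cell adhesion catenin, by 1.28 (SE 0.19), and Myo5a, a motor that carries vesicles along actin, by 1.91 (SE 0.30, adjusted p = 0.00042).

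Most genes of the late disease-associated state were higher in APP/PS1 mice. Of the 33 genes of the list, 26 were called higher and 0 lower, against 4.61% and 6.12% of all genes. Values of 31 did not overlap between the genotypes (35.2% of all genes). The median difference was 1.27, against -0.04 over all 12930 genes. Cst7, which encodes the cysteine protease inhibitor cystatin F (chromosome 2, 150570415 to 150578944), measured 14.10, 14.30, 14.59 and 13.70 in APP/PS1 and 10.93, 10.79, 9.58 and 12.76 in WT libraries. This was the largest difference of the comparison (3.15, SE 0.52, limma adjusted p = 0.000643). WT replicate 4 stood nearest to the APP/PS1 libraries and WT replicate 3 farthest from them. Clec7a, the beta-glucan receptor dectin-1, measured 11.17, 11.26, 11.73 and 11.85 against 9.13, 9.30, 8.68 and 9.69 (2.30, SE 0.50, adjusted p = 0.00515). Gpnmb, a glycoprotein of late endosomes and lysosomes, measured 10.21, 11.07, 9.58 and 10.47 against 8.04, 7.87, 7.81 and 8.52 (2.28, SE 0.40, adjusted p = 0.00108). Again WT replicate 4 was the highest WT library for both genes. Lilrb4a, an inhibitory receptor, showed less spread, with 10.01, 10.17, 9.99 and 10.21 against 8.10, 8.20, 7.97 and 8.01 (2.02, SE 0.32, adjusted p = 0.000517).

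Further late genes followed the same order. The growth factor Igf1 averaged 11.27 ± 0.36 (SD, n = 4) in APP/PS1 and 9.17 ± 0.65 (n = 4) in WT libraries (difference 2.10, limma adjusted p = 0.00485), and the integrin Itgax 10.42 ± 0.40 against 8.76 ± 0.60 (1.67, adjusted p = 0.00741). Lpl, which releases fatty acids from lipoproteins, measured 11.77, 11.91, 11.77 and 12.03 against 10.30, 10.02, 10.03 and 10.78 (1.59, SE 0.35, adjusted p = 0.00553). The pyrophosphate exporter Ank (1.52), the actin capping protein Capg (1.44), Lgals3bp (1.39), Cd63 (1.21), the cholesterol hydroxylase Ch25h (1.19), the Wnt inhibitor Dkk2 (1.10) and Serpine2 (0.86) were also called. The Ch25h call was lost with 3 of the 8 libraries left out in turn (adjusted p up to 0.072). Axl, a receptor for apoptotic cells, was 1.28 higher (adjusted p = 0.012), a call lost without APP/PS1 replicate 2 (adjusted p = 0.053). The 7 members not called were Spp1, Ccl6, Lgals3, Itgb5, Cybb, Cadm1 and Fabp5. Spp1, which encodes osteopontin, measured 12.03, 12.76, 11.92 and 13.96 against 11.34, 11.15, 11.25 and 10.98 (1.49, SE 0.74, adjusted p = 0.204), without overlap but with a wide APP/PS1 group. Fabp5, a fatty acid binding protein, measured 11.20, 10.95, 10.92 and 10.87 against 10.94, 10.73, 10.72 and 10.85, and the groups overlapped (0.17, adjusted p = 0.779).

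The 9 early genes had a median difference of 0.97, with 5 called higher and 0 lower (4.61% and 6.12% of all genes). Ctsd, an aspartic protease of lysosomes, measured 17.17, 16.99, 17.51 and 17.02 against 15.67, 15.68, 15.31 and 15.97, all near the top of the scale. Timp2, an inhibitor of matrix metalloproteases, was 1.00 higher (SE 0.20, limma adjusted p = 0.00301) and B2m, the light chain of class I molecules, 0.97 higher (adjusted p = 0.0192). Apoe, the main lipid carrier of the brain, measured 17.72, 17.29, 17.76 and 17.52 against 16.67, 16.54, 16.52 and 17.02. Its groups did not overlap, but the difference of 0.88 (SE 0.32) did not pass the threshold (adjusted p = 0.0743). Lyz2 (0.82), Fth1 (0.71) and Cstb (0.38) were not called either.

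**Figure D2:**
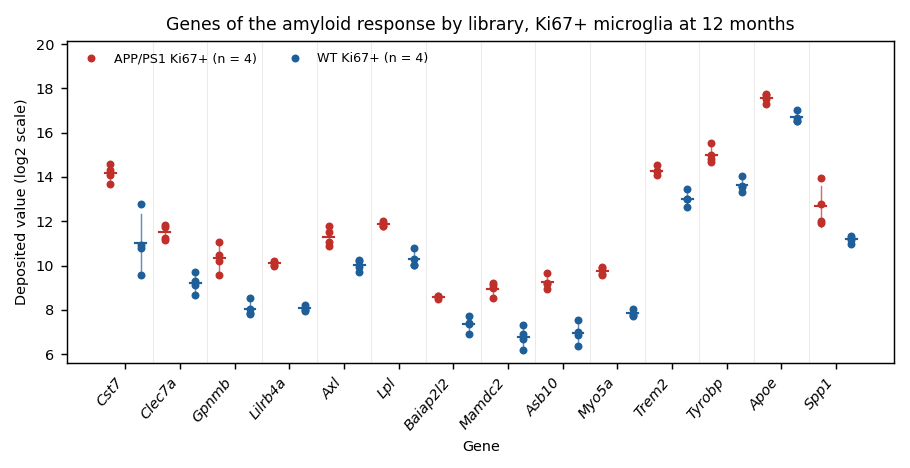
Deposited values (y axis, log2 scale) of 14 selected genes in each Ki67+ library at 12 months, APP/PS1 in red and WT in blue, with bars for the mean and lines for 1 SD (n = 4 each). All 4 APP/PS1 libraries lie above all 4 WT libraries for each gene shown, and Apoe (adjusted p = 0.0743) and Spp1 (adjusted p = 0.204) are the genes not called. Such separation was part of the rule that named Cst7, Clec7a, Gpnmb, Baiap2l2, Mamdc2, Asb10 and Myo5a, so it is no separate result. Fabp5, whose groups overlapped, is not shown.

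Of 26 tested genes of TREM2 and CSF1R signalling, 4 were called higher and 1 lower (4.61% and 6.12% of all genes), with a median difference of -0.00. The called higher genes were the receptor Trem2, its adaptor Tyrobp, the ligand Csf1 and the kinase Btk. Csf1 measured 11.49, 11.94, 11.12 and 11.70 against 10.10, 10.06, 9.97 and 10.63 (1.37, SE 0.31, limma adjusted p = 0.00617). Il34, the other ligand of CSF1R, went the other way, with 6.55, 6.46, 6.79 and 6.19 against 7.44, 7.17, 7.74 and 7.46 (-0.95, SE 0.22, adjusted p = 0.00707), all within the low range of the scale. Btk was 1.27 higher (adjusted p = 0.0132), a call lost without APP/PS1 replicate 2 (adjusted p = 0.0588) and also without APP/PS1 replicate 4. The receptor Csf1r itself differed by -0.03 (adjusted p = 0.931), the kinase Syk by -0.29 (adjusted p = 0.509) and the phospholipase Plcg2 by -0.64 (adjusted p = 0.154).

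Lysosomal genes shifted upward in part. Of 44 tested hydrolases and their cofactors, 11 were called higher and 0 lower (median difference 0.22), and of 35 genes of the lysosomal membrane and proton pump 7 and 0 (median 0.32). Over all genes 4.61% were called higher and 6.12% lower. Npc2, which hands cholesterol out of the lysosome, measured 13.45, 13.63, 13.47 and 13.47 against 12.38, 12.47, 12.09 and 12.70 (1.10, SE 0.18, limma adjusted p = 0.00064). Ctsl (1.25), Naglu, which degrades heparan sulfate (1.02), Gusb (1.01), Hexa (0.86) and Ctss (0.69) were called higher too. Among membrane and pump genes, Cd63 measured 13.73, 13.74, 13.73 and 13.71 against 12.46, 12.47, 12.49 and 12.67. The proton pump subunit Atp6v1a was 0.96 higher (adjusted p = 0.00947, and 0.0507 without APP/PS1 replicate 2), and Grn, the precursor of granulins, 0.71 higher (adjusted p = 0.0182). The Grn call was lost with 3 of the 8 libraries left out in turn (adjusted p up to 0.055). The regulators of lysosomal genes Tfeb (-0.54), Tfe3 (-0.09) and Mitf (0.09) were not called.

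The E box GTCACGTG lies at the core of the element through which TFEB-type factors are known to act on lysosomal genes, and was looked for on both strands in promoter windows from 250 bases before to 50 after the start (RefSeq, GRCm38.p6). It was present for 8 of 34 hydrolase genes with a window, among them 3 of the 9 called (Ctsd, Ctsa and Naglu), and for 0 of 7 called membrane and pump genes. It was present for 2.55% of 27025 genes of the promoter table, 4.74% of 9903 genes of the comparison, 27 of 441 higher genes (6.12%) and 26 of 584 lower genes (4.45%). The windows of the 3 called genes are shown 5′ to 3′ with the matches, read on either strand, in capitals. Ctsd is on the minus strand at chr7:142387778-142388077, Ctsa on the plus strand at chr2:164833523-164833822 (the second of its 2 windows) and Naglu on the plus strand at chr11:101069844-101070143.
Ctsd: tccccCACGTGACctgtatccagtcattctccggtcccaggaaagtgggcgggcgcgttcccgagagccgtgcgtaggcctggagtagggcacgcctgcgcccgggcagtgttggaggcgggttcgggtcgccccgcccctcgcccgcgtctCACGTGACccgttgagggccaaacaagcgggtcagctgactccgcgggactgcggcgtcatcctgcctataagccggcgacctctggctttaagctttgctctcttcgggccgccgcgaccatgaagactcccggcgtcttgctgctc
Ctsa: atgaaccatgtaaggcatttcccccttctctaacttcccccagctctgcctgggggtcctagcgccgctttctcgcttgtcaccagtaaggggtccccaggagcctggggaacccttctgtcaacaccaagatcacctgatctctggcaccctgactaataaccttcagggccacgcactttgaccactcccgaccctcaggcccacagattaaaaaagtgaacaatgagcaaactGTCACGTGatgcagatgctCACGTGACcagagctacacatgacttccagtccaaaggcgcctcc
Naglu: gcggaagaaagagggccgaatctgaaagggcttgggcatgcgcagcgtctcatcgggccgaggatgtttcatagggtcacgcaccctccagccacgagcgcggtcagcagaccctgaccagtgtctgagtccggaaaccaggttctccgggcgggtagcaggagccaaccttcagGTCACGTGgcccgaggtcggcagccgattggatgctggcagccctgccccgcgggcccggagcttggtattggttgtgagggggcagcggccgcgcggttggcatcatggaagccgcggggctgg
Ctsd and Ctsa hold 2 matches each, the first at -245 and -14 from the start site, and Naglu holds 1 at -75.

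Calls among receptors for uptake went both ways. The mean level of this list was 9.91 to 10.02 per library in APP/PS1 and 9.72 to 9.80 in WT mice, and 18 of 31 genes were above 0. Among 31 phagocytic receptors and engulfment genes 4 were called higher and 3 lower (median 0.24), against 4.61% and 6.12% of all genes. The higher ones were Clec7a, Axl, Mpeg1 and Cd14. Cd14, the lipopolysaccharide co-receptor, measured 11.34, 11.49, 11.37 and 10.91 against 10.17, 9.83, 10.10 and 10.83 (1.04, adjusted p = 0.0155), with WT replicate 4 just under the lowest APP/PS1 library. Its adjusted p was at most 0.0646, when APP/PS1 replicate 2 or WT replicate 2 was left out. The lower ones were Adgrb1 (-0.75), the scavenger receptor Stab1 (-0.86) and Megf10 (-1.24), receptors for dying cells, of which Megf10 overlapped between the groups. Of 16 complement and Fc receptor genes, 2 were higher, among them the Fc receptor gamma chain Fcer1g (0.63), and C2 was lower (-1.21). The C1q chains C1qa (0.22), C1qb (0.39) and C1qc (0.52) and the receptor C3ar1 (0.42) were not called. The calls of Stab1, Megf10, C2 and Fcer1g were lost with 5 to 7 of the 8 libraries left out in turn, with adjusted p-values up to 0.0659, 0.118, 0.168 and 0.0905. That of Adgrb1 was lost with 2 of them (adjusted p up to 0.0692).

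Class I presentation had 5 of 22 genes higher and 0 lower (median 0.36). Calls of class I and interferon-stimulated genes are to be read against 4.61% higher and 6.12% lower over all genes. H2-M3, a class I heavy chain for formylated peptides, measured 9.70, 10.31, 9.72 and 10.36 against 8.32, 8.66, 7.92 and 8.73 (1.61, SE 0.36, limma adjusted p = 0.0063). The peptide transporter Tap1 (1.30), the editor Tapbpl (1.04), B2m and the proteasome activator Psme1 (0.89) were the others, while the classical heavy chains H2-K1 (0.01) and H2-D1 (0.57) were not called. Interferon-stimulated genes were mostly positive and rarely called, with 30 of 37 above 0, 2 called higher (Ifi27l2a 1.49, adjusted p = 0.00564, and the transcription factor Irf7 0.98) and 1 lower, the GTPase Gbp3. Gbp3 measured 7.03, 6.89, 7.32 and 7.07 against 8.54, 8.72, 8.66 and 8.39 (-1.50, SE 0.31, adjusted p = 0.00349). The calls of B2m, Tap1 and Irf7 were lost with 4, 5 and 6 of the 8 libraries left out in turn (adjusted p up to 0.0724, 0.109 and 0.0971).

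Among 36 cytokine and chemokine genes, 5 were higher and 5 lower. Calls in this list and in the inflammasome list are to be read against 4.61% higher and 6.12% lower over all genes. Cxcl1, a chemokine for neutrophils, measured 7.77, 8.70, 7.45 and 7.80 against 6.06, 5.75, 6.06 and 6.71 (1.79, SE 0.34, limma adjusted p = 0.00206). Il6 measured 7.96, 8.49, 7.68 and 8.53 against 6.72, 6.65, 6.53 and 7.07 (1.42, SE 0.29, adjusted p = 0.00351). Both were weakly expressed in WT libraries. Mif (1.13), Ccl3 (1.05) and Ccrl2 (0.91) completed the higher group. Ccl9 measured 9.25, 8.65, 9.45 and 8.75 against 10.50, 10.31, 10.46 and 10.57 (-1.44, SE 0.28, adjusted p = 0.00225). Il16 (-1.43), Ccl7 (-1.51) and Cxcl14 (-1.05) were also lower, and Il1b (0.80) and Tnf (0.74) were not called. Of 40 genes of the inflammasome and NF-kB pathway, 4 were higher and 1 lower, namely Tlr1, a receptor for bacterial lipopeptides (1.65, adjusted p = 0.00789), Cd180, Nfkbiz (1.07), Traf6 (0.99) and Nfkb2 (-0.97). The calls of Ccl3, Traf6 and Nfkb2 were lost with 7, 6 and 6 of the 8 libraries left out in turn (adjusted p up to 0.0872, 0.101 and 0.0736). Nlrp3, the inflammasome sensor, differed by 0.07 (adjusted p = 0.898).

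Calls in the metabolic lists are to be read against 4.61% higher and 6.12% lower over all genes. Of 25 glycolytic genes, Hif1a and Pgk1 (0.78, adjusted p = 0.0453) were higher and the lactate transporter Slc16a1 lower (-1.17, SE 0.27, adjusted p = 0.00726), with Gapdh at 0.40 and Ldha at 0.36 not called. Of 68 genes of the TCA cycle and respiratory chain, 8 were higher and 2 lower. The higher ones were small subunits of respiratory complexes, among them Uqcrh, with 10.64, 10.91, 10.52 and 11.21 against 9.47, 9.46, 9.64 and 9.48 (1.31, SE 0.24, adjusted p = 0.00137), Ndufa1 (1.21) and Ndufa2 (1.04). The lower ones were Atp5a1 (-0.56) and Suclg1 (-0.98). The calls of Pgk1, Hif1a, Atp5a1 and Suclg1 were each lost with at least 7 of the 8 libraries left out in turn, with adjusted p-values up to 0.145, 0.143, 0.162 and 0.0804. In lipid handling 4 of 32 were higher (Lpl, Fabp3, Ch25h and Npc2) and 2 lower. The calls of Fabp3 and Ch25h were lost with 1 and 3 of the 8 libraries left out in turn (adjusted p up to 0.0645 and 0.072). The lower genes were the triglyceride lipase Pnpla2 (-1.41, SE 0.29, adjusted p = 0.0031) and Nr1h3, which encodes the oxysterol receptor LXR alpha, with 6.48, 6.49, 6.46 and 6.71 against 7.93, 7.91, 8.01 and 7.79 (-1.37, SE 0.28, adjusted p = 0.00317). Cholesterol synthesis leaned lower, with 17 of 23 genes below 0 and a median of -0.31, but only Dhcr7, the last enzyme of the pathway, was called (-1.09, SE 0.26, adjusted p = 0.00922).

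The cell cycle lists were called at shares near those of all genes (4.61% higher, 6.12% lower). Mki67 (chromosome 7, 135689784 to 135716361) measured 8.41, 8.07, 9.03 and 8.85 in APP/PS1 and 7.82, 7.76, 7.69 and 7.63 in WT libraries. No library crossed over, but the difference of 0.86 (SE 0.39) was not called (limma adjusted p = 0.158). Of 53 genes of G2 and mitosis, 3 were higher and 0 lower (median 0.16), namely the spindle genes Ckap2l (1.30), Hmmr (1.04) and Ttk (0.87). Of 33 S phase genes 0 were higher and 2 lower, the ribonucleotide reductase subunit Rrm2 (-1.42, adjusted p = 0.0287) and the clamp loader Rfc4 (-1.16, adjusted p = 0.043). Each of these 5 calls was lost with 6 or 7 of the 8 libraries left out in turn. Their highest adjusted p over the alternatives was 0.108 (Ckap2l), 0.094 (Hmmr), 0.148 (Ttk), 0.0842 (Rrm2) and 0.166 (Rfc4). Top2a (0.96), Cdk1 (0.64), Ccnb1 (-0.13) and Pcna (0.33) were not called.

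Class II presentation was lower in APP/PS1 mice for the peptide-binding chains. Of 12 tested genes 0 were higher and 4 lower, against 4.61% and 6.12% of all genes, with a median of -0.09. H2-Aa, the alpha chain of I-A (chromosome 17, 34282744 to 34287823), measured 11.12, 10.26, 11.66 and 11.28 in APP/PS1 and 13.14, 13.28, 12.89 and 13.48 in WT libraries (-2.11, SE 0.48, limma adjusted p = 0.00716). Its partner H2-Ab1 measured 11.18, 10.88, 11.79 and 11.71 against 12.99, 12.99, 13.05 and 13.17 (-1.66, SE 0.41, adjusted p = 0.0112). All WT libraries lay more than a unit above all APP/PS1 libraries for both chains. H2-Eb1, the beta chain of I-E, measured 9.91, 8.80, 10.53 and 10.46 against 11.81, 12.09, 11.40 and 12.08 (-1.92, SE 0.58, adjusted p = 0.0359), and Ifi30, a thiol reductase of antigen processing, differed by -0.98 (adjusted p = 0.0424). The calls of H2-Eb1 and Ifi30 were lost without any 1 library other than APP/PS1 replicate 3, with adjusted p-values up to 0.141 and 0.131. The invariant chain Cd74 measured 12.56, 11.63, 13.16 and 13.07 against 14.31, 14.59, 13.97 and 14.67 (-1.78, adjusted p = 0.0518). The peptide loading genes H2-DMa (0.25) and H2-DMb1 (0.24), the class II transactivator Ciita (0.28) and the costimulator Cd86 (0.50) lay above 0 and were not called.

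Most markers of other myeloid cells also had negative differences. Of 13 tested monocyte and neutrophil markers 11 were below 0 and 8 did not overlap between the genotypes (35.2% of all genes), with a median difference of -1.34. With the markers under the filter included, the mean level of all 15 was 6.65 to 7.64 per library in APP/PS1 and 8.03 to 8.48 in WT mice (exact two-sided permutation p = 0.0286, which is the lowest possible with 4 against 4 libraries, adjusted p = 0.0572 over 10 marker lists). S100a8, a calcium-binding protein of neutrophils, measured 7.39, 9.71, 8.05 and 10.19 against 10.81, 11.21, 10.57 and 10.52 (-1.94, SE 1.16, limma adjusted p = 0.302), with APP/PS1 replicates 1 and 3 lowest. The chitinase-like gene Chil3 was the 1 marker called (-2.37, adjusted p = 0.0445), against 6.12% of all genes called lower. Its call was lost with each of the 8 libraries left out in turn, and its adjusted p reached 0.123 over the alternatives. Chil3 entered the comparison through the WT group only (mean 9.02, against 6.65 in APP/PS1). Border-associated macrophage markers averaged 7.32 to 8.04 against 8.13 to 8.40 (exact permutation p = 0.0286, adjusted p = 0.0572), and Clec10a was called (-1.32, adjusted p = 0.0421), while Mrc1 was not (-1.02, adjusted p = 0.0887). The part of such cells in the class II values was not tested.

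The Y box CTGATTGG, 1 element of the promoters through which class II genes are known to be switched on, was searched on both strands in the same windows. It was present for 3 of 8 class II genes with a window (H2-Aa, H2-Eb1 and H2-Oa), of which H2-Oa was not called (0.78, limma adjusted p = 0.0944). It was present for 4.7% of 27025 genes, 6.55% of 9903 genes of the comparison, 25 of 441 higher genes (5.67%) and 33 of 584 lower genes (5.65%). The windows of both called genes are shown 5′ to 3′ with the match in capitals. H2-Aa is on the minus strand at chr17:34287774-34288073 and H2-Eb1 on the plus strand at chr17:34305617-34305916.
H2-Aa: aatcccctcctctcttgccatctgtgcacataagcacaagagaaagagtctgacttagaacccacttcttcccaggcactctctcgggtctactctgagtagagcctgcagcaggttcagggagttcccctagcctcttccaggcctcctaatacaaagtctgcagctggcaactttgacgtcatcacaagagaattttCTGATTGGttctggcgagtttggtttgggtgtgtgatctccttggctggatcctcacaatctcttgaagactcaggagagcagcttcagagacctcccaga
H2-Eb1: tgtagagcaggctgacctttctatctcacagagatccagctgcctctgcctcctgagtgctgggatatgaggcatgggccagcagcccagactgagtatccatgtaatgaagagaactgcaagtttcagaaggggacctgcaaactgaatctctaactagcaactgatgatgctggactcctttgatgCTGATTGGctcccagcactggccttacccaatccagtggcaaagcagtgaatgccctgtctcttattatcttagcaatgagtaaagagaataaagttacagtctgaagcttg
The match begins at -51 in H2-Aa and at -62 in H2-Eb1.

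Targets of glucocorticoids were lower as a list. Of 27 tested genes 23 were below 0, 5 were called lower and 0 higher, and the median of -0.55 was the lowest of the 23 pathway lists. Over all genes 6.12% were called lower and 4.61% higher. Tsc22d3, which encodes the glucocorticoid-induced leucine zipper (chromosome X, 140539528 to 140600659), measured 10.11, 10.05, 10.30 and 10.21 against 12.08, 12.29, 12.33 and 11.80. Fkbp5, a chaperone of the glucocorticoid receptor, measured 8.96, 8.99, 9.31 and 9.09 against 10.83, 10.84, 11.05 and 10.47 (-1.71, SE 0.31, limma adjusted p = 0.00133). The replicates of both genes were close together within each genotype. The transcription factors Klf9 (-1.31, adjusted p = 0.00553) and Cebpd (-1.07, adjusted p = 0.00588) and the receptor Nr3c1 (-0.65, adjusted p = 0.0424) were the others. Among immediate early and heat shock genes, which also respond to cell isolation, 3 of 32 were lower and 0 higher (median -0.27). Hspa1a, an inducible chaperone, measured 13.56, 12.75, 13.12 and 13.18 against 15.23, 15.44, 15.03 and 14.77 (-1.97, SE 0.53, adjusted p = 0.0203, and at most 0.0655 with 1 library left out), and Fosb (-1.23) and Klf2 (-1.30) were also lower. The Hspa1a and Klf2 calls were lost with 4 and 6 of the 8 libraries left out in turn (adjusted p up to 0.0655 and 0.0891). Fos (-0.85), Jun (-0.67) and Hspa1b (-0.22) were not called.

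Homeostatic genes split. Of 30 genes 2 were higher and 4 lower, against 4.61% and 6.12% of all genes, with a median of -0.06. Tmem119 measured 12.71, 12.21, 12.97 and 12.43 against 13.71, 13.84, 13.60 and 13.60 (-1.11, SE 0.22, limma adjusted p = 0.0025), and Crybb1 (-1.03) and the transcription factor Sall1 (-0.70) were lower as well. Irf8, which directs the myeloid lineage, measured 12.21, 12.35, 12.15 and 12.33 against 11.30, 11.45, 11.21 and 11.29 (0.95, SE 0.22, adjusted p = 0.00722). P2ry12, an ADP receptor of process movement, measured 13.28, 12.71, 13.24 and 13.11 against 13.22, 13.30, 13.25 and 12.92, with the groups interleaved (-0.09, adjusted p = 0.845). Cx3cr1, the fractalkine receptor, measured 14.06, 13.92, 13.96 and 13.87 against 13.75, 13.74, 13.80 and 13.65, separate by a narrow margin and not called (0.22, adjusted p = 0.504). Fcrls was higher by 0.82 (adjusted p = 0.038). The calls of Fcrls and Sall1 were lost with any 1 library left out (adjusted p up to 0.115 and 0.124), and that of Crybb1 without WT replicate 2 (0.0506).

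**Figure D3:**
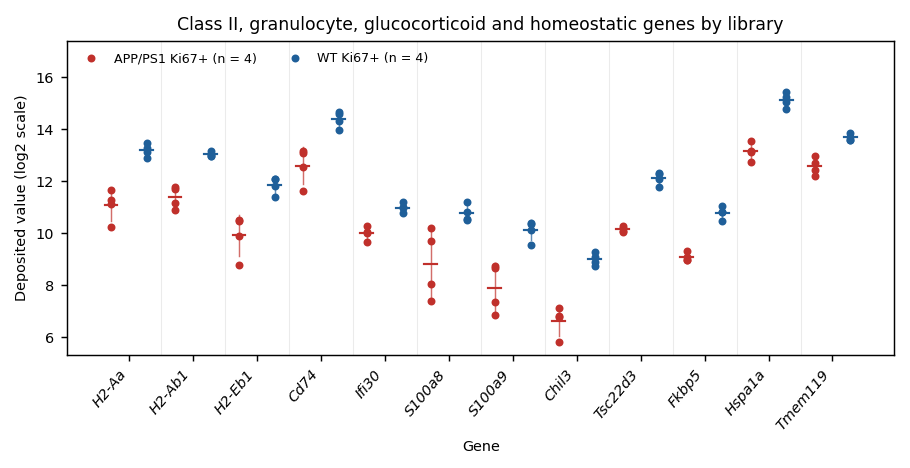
Deposited values (y axis, log2 scale) of 12 class II, granulocyte, glucocorticoid-response, heat shock and homeostatic genes in each Ki67+ library at 12 months, APP/PS1 in red and WT in blue, with bars for the mean and lines for 1 SD (n = 4 each). APP/PS1 libraries lie below WT libraries for each gene shown, and Cd74, S100a8 and S100a9 are the genes not called (adjusted p = 0.0518, 0.302 and 0.152). Only genes with lower values in APP/PS1 are plotted. Differences above 0 were found for 6 of 12 class II, 12 of 30 homeostatic and 10 of 32 immediate early and heat shock genes. They were found for 4 of 27 glucocorticoid genes and 2 of 13 monocyte and neutrophil markers.

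The lowest p among lower genes belonged to Kcnab3, Cpxm2, Tsc22d3, Tenm3, Rfx4, Unc13c, Col4a5 and Thumpd1. Among these, Kcnab3, Cpxm2, Unc13c and Col4a5 had APP/PS1 means under 7 and entered the comparison through the WT group only. The same holds for Prss23 and Serpinb9 below. Kcnab3, a subunit of potassium channels (chromosome 11, 69326258 to 69333042), measured 6.83, 6.75, 6.86 and 6.46 against 8.13, 7.99, 8.23 and 8.18. Cpxm2, a carboxypeptidase-like protein, measured 6.59, 6.67, 6.63 and 6.32 against 7.86, 7.79, 7.89 and 7.98. Tenm3, a teneurin of neuronal adhesion, measured 7.14, 7.46, 7.26 and 6.93 against 8.76, 8.72, 8.87 and 8.79 (-1.59, SE 0.21, limma adjusted p = 9.08e-05). Each of these genes had a WT group of little spread. Rfx4, a transcription factor of neural progenitors and astrocytes, differed by -1.67 (SE 0.24), Unc13c, a synaptic vesicle priming factor, by -1.76 (SE 0.25), and the collagen chain Col4a5 by -1.63 (SE 0.23), each with an adjusted p of 0.000259. Gabbr2, a subunit of the GABA-B receptor, measured 8.16, 7.49, 8.49 and 8.07 against 10.14, 10.18, 10.12 and 9.70 (-1.98, SE 0.33, adjusted p = 0.000643), and the serine protease Prss23 differed by -1.96 (SE 0.35). Serpinb9, an inhibitor of granzyme B, measured 7.42, 6.47, 7.32 and 6.33 against 9.11, 8.76, 9.43 and 8.81 (-2.14, SE 0.51, adjusted p = 0.00907).

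In Ki67- microglia the genes Kcnab3, Cpxm2, Tenm3, Rfx4, Unc13c, Col4a5, Gabbr2 and Prss23 were at the flat low end in both genotypes, with group means from 5.45 (Kcnab3, WT) to 6.63 (Rfx4, WT). Astrocyte markers had negative differences in Ki67+ cells, with 3 of 17 called lower, against 6.12% of all genes. All 17 were below 0, with a median of -0.57, and 10 did not overlap (35.2% of all genes). The exact permutation test on their mean level per library (given above) gave p = 0.0286 (adjusted p = 0.0572). The gap junction gene Gja1 measured 9.71, 9.56, 10.27 and 9.06 against 11, 10.72, 11.23 and 11.08 (-1.36, SE 0.28, limma adjusted p = 0.00378), and Aldh1l1 (-1.29) and the sodium pump subunit Atp1b2 (-1.36) were called lower too. Gfap overlapped between the groups (10.28 ± 0.22 and 10.41 ± 0.10, SD, n = 4 each). The part of astrocyte RNA in the lower genes was not tested.

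The other marker lists varied. Their calls are to be read against 4.61% higher and 6.12% lower over all genes. The 22 neuronal markers averaged 7.34 to 7.66 against 7.64 to 7.91 (exact permutation p = 0.0857, adjusted p = 0.1224), with Slc17a7 called lower (-1.28) and 15 of the 19 tested below 0. Oligodendrocyte markers went the other way, at 8.46 to 8.76 against 7.79 to 8.34 (exact permutation p = 0.0286, adjusted p = 0.0572), and the myelin genes Mal (1.73) and Opalin (1.40) and the iron carrier Trf (0.89) were called higher. Mal measured 8.88, 9.29, 8.86 and 9.0 against 7.41, 7.56, 6.75 and 7.4. Its call was lost with 4 of the 8 libraries left out in turn (adjusted p up to 0.0813). Of 7 tested precursor markers Tnr (-1.14) and Bcan (-1.27) were lower. All 10 of the list averaged 7.88 to 8.03 against 8.12 to 8.20 (exact permutation p = 0.0286, adjusted p = 0.0572). Of 12 endothelial markers Itm2a was lower (-1.93), and of 9 mural markers Pdgfrb (-1.26). The mean levels of both lists overlapped between the genotypes (exact permutation p = 0.3143 and 0.4286, adjusted p = 0.3929 and 0.4762). Of 15 lymphocyte markers 5 reached the filter and 0 were called. The 14 with a deposited value averaged 6.77 to 6.90 against 6.65 to 6.82 (exact permutation p = 0.0857, adjusted p = 0.1224). The part of these cells in other differences was not tested.

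Of 37 tested genes near Alzheimer risk loci, 4 were higher (Lilrb4a, Trem2, Ctsb and Grn) and 0 lower, against 4.61% and 6.12% of all genes, with a median of -0.11. App measured 10.31, 10.32, 9.96 and 9.92 against 9.50, 9.33, 9.19 and 9.88 (0.65, SE 0.28, limma adjusted p = 0.133), and Prnp 12.06, 12.11, 11.81 and 11.99 against 11.98, 11.92, 11.81 and 11.96 (0.08, adjusted p = 0.903). The groups of Prnp overlapped. Among 12 genes of APP processing, the secretase Bace2 was lower (-0.62, adjusted p = 0.0377, and up to 0.101 over the alternatives), and Bace1 was not called (-0.24).

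**Figure D4:**
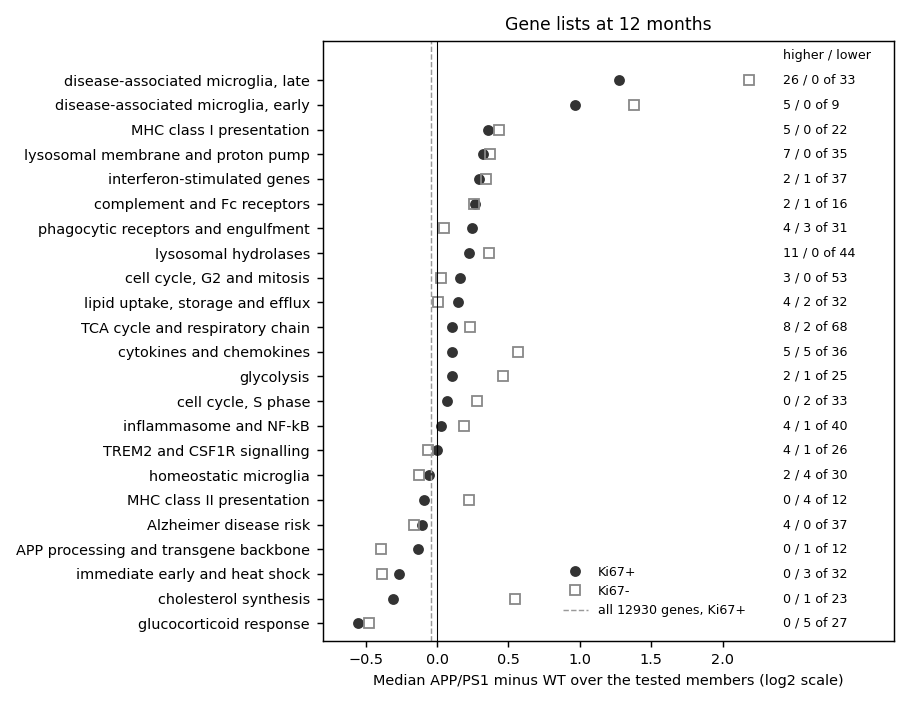
Median difference between APP/PS1 and WT over the tested members of each of 23 gene lists (x axis, log2 scale) in Ki67+ (filled circles) and Ki67- microglia (open squares) at 12 months, with the numbers called higher and lower in Ki67+ cells at the right and the median of all 12930 genes as a dashed line. The late and early disease-associated lists lie highest in Ki67+ cells (1.27 and 0.97) and the glucocorticoid list lowest (-0.55), while cholesterol synthesis lies at -0.31 in Ki67+ and 0.55 in Ki67- cells.

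The same genes were then read in Ki67- microglia of the same age, which share no library with the Ki67+ comparison. The 3 WT Ki67- libraries are nearly identical in the deposited table. Their median SD of a gene was 0.032, against 0.184 to 0.371 in the other 11 groups, and their pairwise r was 0.9984 to 0.9997. With all 3 counted as replicates, 1262 of the 12930 genes were higher (9.76%) and 970 lower (7.50%). Of the 596 genes higher in Ki67+ cells 176 (29.5%) were also higher in Ki67- cells, which is 13.9% of the Ki67- list, and of the 791 lower genes 106 (13.4%) were also lower, 10.9% of the Ki67- list. Opposite calls were made for 18 and 24 genes. With the 3 WT libraries averaged and counted as 1 sample, 173 genes were higher and 79 lower in Ki67- cells, and 63 of the higher and 14 of the lower genes were called in both states. The median difference in Ki67- cells was 0.45 over the higher and -0.15 over the lower genes. The glucocorticoid list had negative medians in both states (5 lower genes in Ki67+, 10 in Ki67- cells or 3 with the WT libraries as 1 sample, median -0.48), and Tsc22d3 differed by -2.03 in Ki67- cells. Border-associated macrophage markers had a median of -0.591 in Ki67- cells (4 called lower, and 1 in Ki67+ cells). Astrocyte markers had a median of -1.045 there (7, and 3 in Ki67+ cells). Tmem119 (-0.95), Sall1 (-1.05), Hspa1a (-1.75) and Gja1 (-1.42) were called lower in Ki67- cells too. These marker and gene calls count the 3 WT Ki67- libraries separately. The class II list had a median of 0.23 in Ki67- cells, where H2-Aa differed by 0.44, H2-Ab1 by -0.70, H2-Eb1 by -0.97 and Ifi30 by -0.21, none of them called. The interaction was called for H2-Aa alone of these 4 (given below), and its adjusted p was 0.336 for H2-Ab1, 0.536 for H2-Eb1 and 0.312 for Ifi30.

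The interaction of genotype with Ki67 state tests the difference between the 2 contrasts directly, and it was called for 1073 genes (8.30%). With the 3 WT Ki67- libraries as 1 sample it was called for 43, all among the 1073, so most of these calls rest on counting those libraries separately. It was called for 121 of the 596 higher genes (20.3%), positive for 110 and negative for 11, and for 180 of the 791 lower genes (22.8%), all negative (10 and 11 genes with the WT Ki67- libraries as 1 sample). These counts use the same 8 Ki67+ libraries that made the calls and are not independent of them. Thumpd1, an RNA acetylation cofactor (chromosome 7, 119715093 to 119720798), measured 7.07, 7.18, 7.00 and 6.88 in APP/PS1 and 8.73, 8.92, 8.61 and 8.97 in WT Ki67+ libraries, whereas in Ki67- cells it averaged 7.65 in APP/PS1 and 5.90 in WT mice (interaction -3.52, SE 0.38, limma adjusted p = 8.39e-06). Dhcr7 showed the same crossing, at -1.09 in Ki67+ and 2.12 in Ki67- cells (interaction adjusted p = 1.82e-05). Cxcl14 was -1.05 against 1.14, Klhl26 -1.05 against 1.71 and Ccl9 -1.44 against 0.67. With the WT Ki67- libraries as 1 sample, the interaction stayed called for Thumpd1, Dhcr7, Cxcl14 and Klhl26 (adjusted p = 0.000837, 0.00146, 0.00329 and 0.0178) and not for Ccl9 (0.0658). H2-Aa was -2.11 against 0.44 (interaction -2.55, adjusted p = 0.0275, and 0.184 with the WT Ki67- libraries as 1 sample). Its Ki67- means of 10.86 and 10.42 were near the APP/PS1 Ki67+ mean of 11.08, and the WT Ki67+ libraries stood above the other 3 groups at 13.20. In the reverse sense, Kctd2 was 1.64 against -1.78, Nipal3 1.15 against -2.19 and the Wnt agonist Rspo1 0.93 against -1.11, with interactions that stayed called with the WT Ki67- libraries as 1 sample (adjusted p = 0.0302, 0.0275 and 0.0247). Kctd2, Nipal3 and Rspo1 entered the comparison through the APP/PS1 group only (WT Ki67+ means 6.77, 6.93 and 6.31). The Ki67+ call of Nipal3 was lost with any 1 library left out (adjusted p up to 0.116), and that of Klhl26 with 2 of the 8 (up to 0.065).

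Of the 33 late genes, 31 were higher in Ki67- cells with a median difference of 2.18, and 9 had a called interaction, each with the smaller difference in Ki67+ cells. With the WT Ki67- libraries as 1 sample these counts were 23 and 3. Cst7 averaged 14.17 and 13.54 in APP/PS1 Ki67+ and Ki67- cells against 11.02 and 7.77 in WT mice (interaction -2.61, SE 0.76, limma adjusted p = 0.0341, and 0.205 with the WT Ki67- libraries as 1 sample). Lpl averaged 11.87 and 11.78 against 10.28 and 7.01 (interaction -3.19, adjusted p = 0.000821), and the lysosomal nuclease Pld3 12.07 and 12.39 against 10.94 and 8.96 (interaction -2.31, adjusted p = 0.000127). Apoe averaged 17.57 and 17.58 against 16.69 and 14.33 (interaction -2.36, adjusted p = 0.0042), and Fabp5 10.99 and 10.88 against 10.81 and 6.51 (interaction -4.19, adjusted p = 1.15e-05). Axl had an interaction of -1.95 (adjusted p = 0.0123) and Baiap2l2 of -1.57 (adjusted p = 0.00151). With the WT Ki67- libraries as 1 sample, Lpl, Pld3, Fabp5 and Baiap2l2 stayed called (adjusted p = 0.0275, 0.00698, 0.00102 and 0.0412) and Apoe (0.0728) and Axl (0.124) did not. In Ki67+ cells alone, Apoe and Fabp5 were not called. Ctsd (-0.15), Trem2 (-0.26), Asb10 and Tsc22d3 (0.07) had no called interaction, with adjusted p-values of 0.809, 0.65, 1.0 and 0.934.

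**Figure D5:**
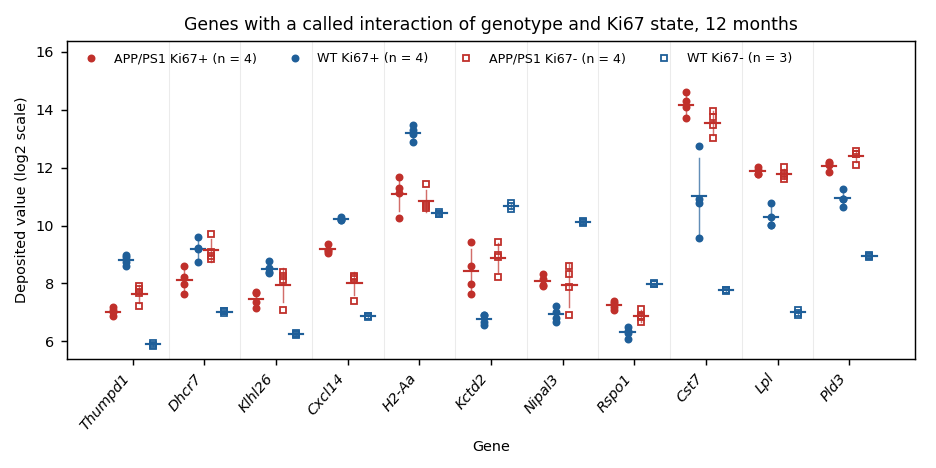
Deposited values (y axis, log2 scale) of 11 genes with a called interaction of genotype and Ki67 state at 12 months (not called for Cst7 and H2-Aa with the WT Ki67- libraries as 1 sample), with circles for Ki67+ and squares for Ki67- libraries, red for APP/PS1 and blue for WT, bars for the mean and lines for 1 SD (n = 4, or 3 for WT Ki67-). Thumpd1, Dhcr7, Klhl26 and Cxcl14 are lower in APP/PS1 Ki67+ cells and higher in APP/PS1 Ki67- cells, Kctd2, Nipal3 and Rspo1 show the reverse, and Cst7, Lpl and Pld3 differ in both states with the lowest values in WT Ki67- cells.

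At 4 months the genes called at 12 months were nearly level, with median differences of 0.07 over the higher and -0.09 over the lower genes (all genes -0.01). At 6 months, with 2 libraries per genotype, the medians were 0.70 and -0.45 (all genes -0.02). The difference between the 12- and 4-month contrasts was called for 188 genes (1.45%), among them 71 higher and 98 lower genes of the 12-month comparison, again through the same 8 libraries. Leaving out 1 of these libraries lowered the count to between 28 (WT replicate 1) and 75 (APP/PS1 replicate 1), or to 119 without WT replicate 4 and 186 without APP/PS1 replicate 3. Lilrb4a was -0.27 at 4 months, 1.33 at 6 months and 2.02 at 12 months (12 minus 4 months 2.29, limma adjusted p = 0.0162), and Mamdc2 was 0.08, -0.35 and 2.18 (adjusted p = 0.022). Myo5a was 0.27, 1.28 and 1.91 (adjusted p = 0.0426). Fkbp5 was 0.81, -0.69 and -1.71 (adjusted p = 0.00619), Tsc22d3 0.24, -1.35 and -1.96 (adjusted p = 0.00325), and Unc13c 0.35, -0.35 and -1.76 (adjusted p = 0.00449). Cst7 stood apart from these, with a difference of 3.16 at 4 months and 4.87 at 6 months, and the 12-month difference minus the 4-month one was -0.01 (adjusted p = 0.998). Lpl was already called at 4 months (1.81, adjusted p = 0.0407), and was 2.59 at 6 and 1.59 at 12 months. The late disease-associated list had medians of 0.516, 1.367 and 1.275 at 4, 6 and 12 months. Ctsd was 0.45, 2.76 and 1.51, Tyrobp 0.61, 2.66 and 1.38, and Trem2 0.30, 2.65 and 1.27. The 12-month difference minus the 6-month one was called for Trem2 (-1.38, adjusted p = 0.0372) and not for Ctsd or Tyrobp. At 4 months H2-Aa differed by 0.13 and H2-Ab1 by 0.10, and at 6 months H2-Ab1 was at 1.16 (adjusted p = 0.212). The 12-month difference minus the 6-month one was called for H2-Ab1 (-2.82, adjusted p = 0.0324) and not for H2-Aa (-2.32, adjusted p = 0.152) or H2-Eb1 (-3.04, adjusted p = 0.111). It was also called for Tmem119 (-1.76, adjusted p = 0.0131) and Chil3 (-5.17, adjusted p = 0.0331). Their 6-month differences were 0.65 and 2.80, neither of them called.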

How the data were processed

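Pools of up to 400 fixed, FACS-sorted Ki67+ or Ki67- microglia were amplified with 24 cycles and sequenced. The authors demultiplexed with bcl2fastq 2.20, quantified read 1 with Kallisto 0.43.1 on GRCm38, normalized with DESeq2 (version not given in the sources used here) and applied a batch correction with 10 surrogate variables. Which factors it protected is not given in the sources used here, and the 12 groups were taken as protected from the rank of the table. The deposited score of each gene resembles a log2 value, by a transformation not given in the sources used here (range 3.07 to 18.35, 19151 genes, 42 libraries). Counts and depth per library are unknown, so no counting interval was computed. Class II and I symbols written with a point in the table were read with a hyphen. Libraries were grouped by the GEO labels, which do not say whether replicates are separate mice, so p-values may measure technical spread.

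Genes whose mean reached 7 in any group (14910, with 4241 left out) were fitted with limma 3.58.1 in R 4.3.3 on all 42 libraries and 12 group means. The deviations from the group means had rank 20, and residual degrees of freedom were set to 20 to count the 10 removed directions. P-values were Benjamini-Hochberg adjusted over all 14910 genes at an FDR of 0.05. The script was tested on simulated data. Marker lists were compared by exact two-sided permutation of their mean level over libraries (70 assignments). This mean level took in all list genes with a deposited value, also those under the filter. Python 3.11.15, numpy 2.4.6, pandas 2.3.3, scipy 1.17.1 and matplotlib 3.10.9 were used.

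The genes, lists and tests were chosen with earlier results of these data known. Named genes were, among called genes without overlap, the 8 of lowest p and 6 of largest difference per direction, up to 4 called members per list and direction by p (the member of lowest p where none was called), up to 5 called genes per direction by interaction p, Mki67, App and Prnp, and genes the study names. A few genes that the rule names are not reported here. Other list members were named after their values were seen. Alternatives were the filter (none, or 8), adjustment over the genes of the comparison, 12-month or compared libraries only, uncounted removed directions, trend and robust options, subtracted library medians and leaving out each library. Averaging the 3 WT Ki67- libraries of 12 months into 1 sample was chosen after seeing the data. The exact sequences come from RefSeq (GRCm38.p6), and gene coordinates from GENCODE on GRCm38.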

Additional observations from a re-analysis of the deposited data

Results flagged for a closer look

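In 13 of 244 groups of 4 Ki67+ libraries of a named gene, 1 library stood apart from the other 3 by Dixon's criterion, with the gap to its neighbour as a share of the group's range given in parentheses. Chance marks about 1 in 20 groups. APP/PS1 replicate 2 was far above the other libraries of its group for Npc2 (0.886). APP/PS1 replicate 2 was far below the other libraries of its group for Mif (0.974). APP/PS1 replicate 3 was far above the other libraries of its group for Timp2 (0.831) and Rrm2 (0.948). APP/PS1 replicate 4 was far above the other libraries of its group for Cd180 (0.891), Fabp3 (0.873) and Nr1h3 (0.864). WT replicate 2 was far above the other libraries of its group for Grn (0.938). WT replicate 3 was far above the other libraries of its group for Uqcrh (0.931). WT replicate 4 was far above the other libraries of its group for LOC105244208 (0.843), Cd63 (0.836) and Ndufa1 (0.87). WT replicate 4 was far below the other libraries of its group for Gabbr2 (0.882).

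The genotype difference in Ki67+ cells differed from that in Ki67- cells at 12 months by the limma interaction for the named genes listed here. Ki67+ minus Ki67- was positive on the log2 scale for Rspo1 (2.04), Nipal3 (3.34), Kctd2 (3.42), Atp6v1a (1.23), Tapbpl (1.45), Mki67 (1.92) and App (1.74). It was negative for Baiap2l2 (-1.57), Cst7 (-2.61), Pld3 (-2.31), Lpl (-3.19), Kcnab3 (-1.55), Cpxm2 (-1.45), Tenm3 (-1.44), Rfx4 (-1.42), Unc13c (-1.44), Col4a5 (-1.53), Thumpd1 (-3.52), H2-Aa (-2.55), Gabbr2 (-1.96), Prss23 (-1.69), Dhcr7 (-3.21), Cxcl14 (-2.19), Klhl26 (-2.76), Axl (-1.95), Ccl9 (-2.1), Nr1h3 (-1.35), Prnp (-1.41), Apoe (-2.36) and Fabp5 (-4.19). With the 3 nearly identical WT Ki67- libraries as 1 sample, 13 of these 30 stayed called, namely Baiap2l2, Pld3, Rspo1, Nipal3, Lpl, Kctd2, Kcnab3, Cpxm2, Thumpd1, Dhcr7, Cxcl14, Klhl26 and Fabp5. For Kcnab3, Cpxm2, Tenm3, Rfx4, Unc13c, Col4a5, Gabbr2 and Prss23 both Ki67- groups lay at the flat low end of the scale.

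The Ki67+ genotype difference at 12 months differed from that at 4 months for the named genes listed here. The 12-month minus 4-month value was positive for Asb10 (1.58), Mamdc2 (2.1), Ctnna3 (1.2), Myo5a (1.64), Lilrb4a (2.29), Mpeg1 (1.27), Irf7 (1.67), Cxcl1 (1.91), Uqcrh (1.27) and Mal (2.56). It was negative for Kcnab3 (-1.1), Cpxm2 (-1.26), Tsc22d3 (-2.2), Tenm3 (-1.28), Rfx4 (-1.74), Unc13c (-2.11), Col4a5 (-1.58), Thumpd1 (-2.39), Gabbr2 (-1.94), Prss23 (-2.27), Megf10 (-1.9), Ccl9 (-1.93), Fkbp5 (-2.52) and Gja1 (-1.59). No explanation was tested for these results.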

How the results depend on the processing

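The 1387 calls (596 higher, 791 lower) became 4049 (1737 and 2312) with 12-month libraries only, 4761 (2043 and 2718) with the 8 compared libraries only, and 3302 (1445 and 1857) with the removed directions not counted. With a filter at 8 the lower genes fell to 527. The interaction was called for 1073 genes, and for 3552 with 12-month libraries only and 2766 with the removed directions not counted. The 12 minus 4 months difference was called for 188 genes, and for 101 with a filter at 8 and 1364 with the removed directions not counted. The interaction with the 8 libraries only, and the age difference with 12-month libraries or the 8 libraries only, could not be fitted. Leaving out each library in turn gave 666 to 1287 calls, 283 to 549 higher, 372 to 738 lower, 645 to 967 for the interaction and 28 to 186 for the age difference. With the 3 nearly identical WT Ki67- libraries averaged as 1 sample, an alternative chosen after seeing the data, the interaction was called for 43 genes and the Ki67- contrast for 252 (173 higher and 79 lower) in place of 2232 (1262 and 970), and 13 of 30 named genes kept a called interaction. The lone sample was then assumed to vary like the other groups. The interaction was lowest without WT replicate 1 (645), APP/PS1 replicate 2 (659) and WT replicate 2 (678).

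Subtracting library medians moved the median of all genes from -0.04 to 0.006 and the share of higher calls from 43% to 52.2%, and 1256 of the 1387 calls remained. It moved the medians of lysosomal membrane genes to 0.371, phagocytic genes to 0.293, inflammasome genes to 0.076, glycolysis to 0.154, respiration to 0.156, Alzheimer risk to -0.058 and APP processing to -0.081. With a filter at 8, class II moved to -0.420 and glycolysis to 0.159. With 1 library left out, medians ran from 0.258 to 0.349 (lysosomal membrane), 0.173 to 0.300 (phagocytic), 0.218 to 0.459 (class I), 0.221 to 0.43 (interferon), 0.064 to 0.192 (cytokines), 0.026 to 0.108 (inflammasome), 0.036 to 0.163 (glycolysis), 0.007 to 0.064 (S phase), -0.227 to -0.067 (class II, lowest without APP/PS1 replicate 4), -0.138 to -0.036 (homeostatic, lowest without APP/PS1 replicate 3), -0.120 to -0.011 (Alzheimer risk) and -0.132 to -0.079 (APP processing). The TREM2 and CSF1R median, near 0, took the other sign under 4 alternatives, up to 0.046. The cause of these shifts was not tested. Of 109 called named genes, 69 kept the call under every alternative run and 40 lost it under at least 1, with 0 changes of direction. No paired analysis was possible because the replicate numbers follow accession order and the labels carry none. Depth is unknown, and low values are compressed.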
